A study of Mus musculus with 32 samples.

Results

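The 43 genes described here code for the proteasome of mouse cells. They are every row of the count table whose symbol is Psma, Psmb, Psmc or Psmd followed by a number, or Psme1 to Psme4, out of 20234 genes. The list holds 8 Psma, 11 Psmb, 6 Psmc, 14 Psmd and 4 Psme genes, and no measured value was used to choose it. RNA came from MEFs, fibroblasts of the connective tissue of mouse embryos kept in culture. A set of 4 conditions was compared with 4 replicates each: thapsigargin for 16 h with PERK inhibited during the last 4 h (Tg 16 h + PERKi), thapsigargin for 0 h (control), thapsigargin for 1 h (Tg 1 h) and thapsigargin for 16 h (Tg 16 h). Thapsigargin blocks the pump that loads calcium into the endoplasmic reticulum and so causes ER stress, and PERK is the ER kinase that slows translation initiation under that stress. All groups were MEFs in the same serum-containing medium; the labels name neither the inhibitor nor any dose, MEF line or genotype, and do not say whether solvent was added where the inhibitor was not. From every one of the 16 samples, cytosolic RNA was sequenced, as was the polysome RNA recovered from it, that is, mRNAs with more than 4 ribosomes on a sucrose gradient.

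The proteasome is the barrel-shaped protease that degrades ubiquitin-tagged proteins, including misfolded ER proteins that are moved back to the cytosol. Its 20S core is built of rings of Psma (alpha) and Psmb (beta) subunits, and some beta subunits carry the proteolytic sites. The 19S cap holds Psmc ATPases, which unfold the substrate, and Psmd subunits, some of which bind or remove ubiquitin. Psme proteins form other caps, and Psmb8, Psmb9 and Psmb10 are the interferon-inducible beta subunits of the immunoproteasome.

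Libraries held 19.32 to 41.78 M counts. Hspa5, the ER chaperone BiP, had 6430 to 7150 CPM (counts scaled to a common library size) in cytosolic RNA at Tg 16 h + PERKi, 928 to 1100 in control, 2910 to 3150 at Tg 1 h and 15800 to 18300 at Tg 16 h. All 7 fibroblast markers were detected in every condition, with a summed cytosolic level of 4160 to 4860 CPM at Tg 16 h + PERKi, 8220 to 12000 in control, 19400 to 24300 at Tg 1 h and 4330 to 5110 at Tg 16 h. The 10 markers of epithelial, leukocyte, endothelial and adipocyte cells that the table holds stayed at or below 2.18 CPM on average in any condition. A change in a bulk library cannot tell fewer cells of a type from less RNA per cell.

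Of the 43 genes, 41 passed the filter on low counts. Psma8, the alpha subunit known from testis, was at 0 in all 32 libraries, and Psmb11, the beta subunit of the thymus, never exceeded 0.261 CPM. The 14 constitutive core genes, Psma1 to Psma7 and Psmb1 to Psmb7, lay within 5.11-fold of each other in control cytosolic RNA when scaled by transcript length, between Psma3 at 48.1 and Psmb3 at 246 CPM per kb, with a median of 129. The inducible beta genes were far lower on that scale, with Psmb9 at 0.859, Psmb8 at 6.76 and Psmb10 at 17.6 CPM per kb. Among the caps, Psmc genes ran from Psmc4 at 40.2 to Psmc1 at 101.5 CPM per kb, and Psmd genes from Psmd9 at 8.74 to Psmd7 at 243. Lengths were those of the annotated transcript with the longest coding sequence, 2846 nt for Psma3, 2597 for Psmd9 and 766 for Psmb3. Levels per kb, and the order of the genes on that scale, depend on that choice. Psmd9 is an assembly chaperone of the cap and not part of the finished particle, as are Psmd5 and Psmd10.

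Proteasome mRNAs were among those most associated with heavy polysomes in control cells, and thapsigargin lowered that association within 1 h. The measure is the log2 ratio of polysome to cytosolic level within a sample, which here stands for translational efficiency. Its median over the 41 genes was 1.31 at Tg 16 h + PERKi, 1.65 in control, 0.16 at Tg 1 h and 0.36 at Tg 16 h. The medians of all 12561 genes tested lay between -0.05 and 0.03 in the 4 conditions. The proteasome medians stood at percentile 96.4 of all genes at Tg 16 h + PERKi, 94.5 in control, 58.3 at Tg 1 h and 65.1 at Tg 16 h. Within the control group, Psmc genes had the highest class median, 1.87, and Psme genes the lowest, 1.02. The lowest single gene was Psmd1 at -0.51.

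**Figure D1:**
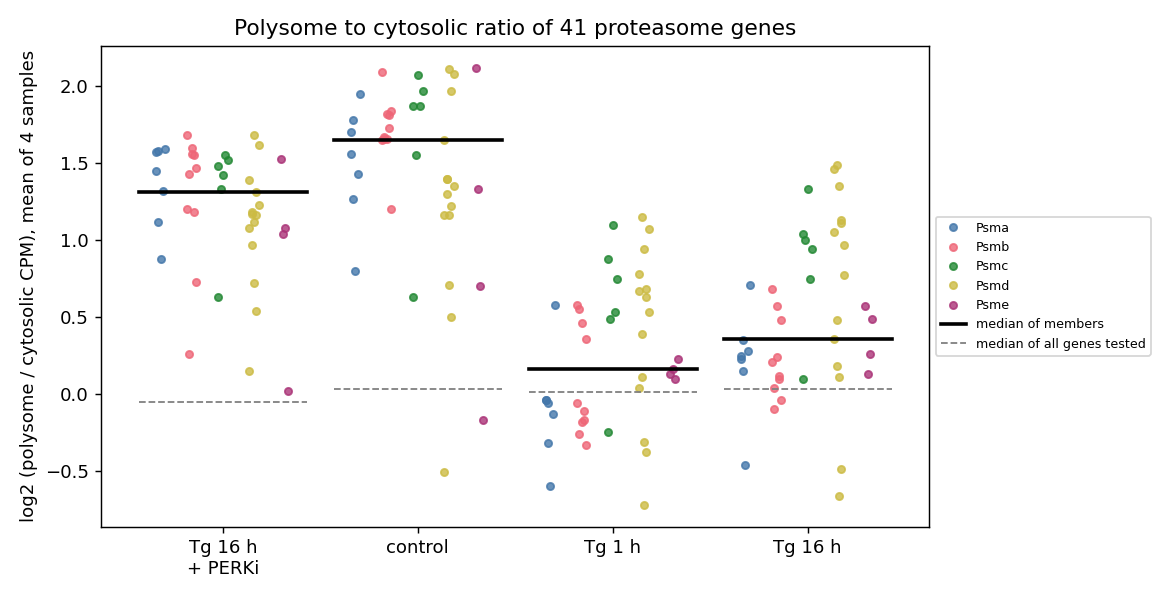
Each point is the mean log2 ratio of polysome to cytosolic CPM of a proteasome gene over 4 samples, coloured by class, in the 4 conditions; the black line is the median of the 41 genes and the dashed line the median of all genes tested. The black line sits at 1.31 with the inhibitor and 1.65 in control, against 0.16 at 1 h and 0.36 at 16 h of thapsigargin, while the dashed line stays near 0.

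The summed polysome level of all 43 genes shows the same course in each library. It was 11420, 11820, 11420 and 11470 CPM at Tg 16 h + PERKi, 11630, 11940, 12250 and 11630 in control, 6375, 6225, 6169 and 6536 at Tg 1 h, and 7378, 7520, 7460 and 7511 at Tg 16 h. The 1 h and 16 h libraries did not overlap with the other groups. In cytosolic RNA the sums differed less: 6212 to 6508 CPM at Tg 16 h + PERKi, 5391 to 5719 in control, 6144 to 6281 at Tg 1 h and 6052 to 6388 at Tg 16 h. Every control library still lay below every library of the other groups.

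Translational efficiency fell at 1 h for 39 of the 41 genes and rose for 2, by edgeR's quasi-likelihood test at a Benjamini-Hochberg adjusted p under 0.05 over all genes. The median log2 change was -1.34, against -0.01 for all genes; 34.4% of all genes tested were called lower and 33.4% higher. At 16 h against control, 36 genes fell and 2 rose, with a median of -1.15, where 33.0% of all genes were lower and 31.1% higher. At 1 h, the changes of the 41 genes ran from -1.99 to 1.29 on the log2 scale. In polysome RNA, 38 fell and 3 rose at 1 h (38.5% and 41.1% of all genes), and 33 fell and 8 rose at 16 h (42.9% and 42.3%). Comparisons against control share the control libraries, so they are not independent of each other.

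Every tested gene of the 20S core lost polysome association. All 7 tested Psma and all 10 tested Psmb genes fell in translational efficiency at 1 h and at 16 h, with class medians of -1.59 and -1.64 at 1 h and -1.26 and -1.43 at 16 h. Psmb6, the beta 1 subunit with caspase-like activity (chr11:70525367-70527858, plus strand, mm10), had polysome levels of 513.4, 498.5, 497.8 and 505.5 CPM at Tg 16 h + PERKi, 426.5, 434.5, 392.9 and 446.1 in control, 149.8, 142.5, 156.3 and 146.7 at Tg 1 h, and 172.1, 159.5, 153.8 and 188.1 at Tg 16 h. Every thapsigargin library without inhibitor lay below every control library. Its translational efficiency changed by -1.92 ± 0.0858 (log2 ± SE, n = 4 each, edgeR adjusted p = 9.46e-13) at 1 h and by -1.62 ± 0.0854 (adjusted p = 1.01e-11) at 16 h.

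The other catalytic subunits followed. Psmb5, with chymotrypsin-like activity, had 232.6, 219.1, 225.2 and 222.5 CPM in polysome RNA at Tg 16 h + PERKi, 261.4, 261.3, 246.5 and 271.2 in control, a mean of 111.5 ± 4.91 (SD, n = 4) at Tg 1 h, and 112.5, 103.9, 103.1 and 123.9 at Tg 16 h, a change in translational efficiency of -1.51 at 1 h. Psmb7, with trypsin-like activity, changed by -1.36 at 1 h and -1.25 at 16 h. Psma7, an alpha-ring subunit, changed by -1.59 and -1.12, and its polysome libraries at those times reached at most 150.9 and 158.1 CPM, below the 350.7 to 364.1 CPM of control. The core gene with the largest fall at 1 h was Psmb3 at -1.98, and that with the smallest was Psmb10 at -1.11.

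The 19S cap was split by gene. All 6 Psmc ATPase genes fell in translational efficiency at both times, with medians of -1.03 and -0.78, between Psmc6 at -0.88 and Psmc4 at -1.34 at 1 h. For Psmc6 the direction at 16 h depends on the method, since regressing polysome on cytosolic levels gave a positive change. Psmc5 changed by -1.23 and -1.04. Of the 14 Psmd genes, 13 fell and 1 rose at 1 h, and 10 fell and 1 rose at 16 h. Psmd4, a ubiquitin receptor, changed by -1.28 and -0.83, and Psmd11, a scaffold subunit, by -1.47 and -1.05. Psmd14, the deubiquitinase of the cap, changed by -0.48 at 1 h and by -0.11 at 16 h (adjusted p = 0.388, not called). Psmd2, a large scaffold subunit, changed by -0.26 at 1 h and by 0.08 at 16 h (adjusted p = 0.323, not called).

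Psmd1 moved the opposite way. It codes for the largest base subunit of the cap, a docking site for ubiquitin receptors and shuttle factors (chr1:86064387-86139151, plus strand, mm10). Its polysome level was 116.9, 126.8, 119.8 and 117.5 CPM at Tg 16 h + PERKi, 60.7, 62.8, 68.6 and 63.0 in control, 221.4, 201.4, 194.6 and 214.7 at Tg 1 h, and 309.9, 310.3, 326.4 and 299.3 at Tg 16 h. The 4 groups did not overlap. Its cytosolic level was 135.7 to 157.5 CPM at Tg 16 h + PERKi, 112.4 to 136.8 in control, 148.1 to 168.1 at Tg 1 h and 140.2 to 165.4 at Tg 16 h. Translational efficiency rose by 1.29 ± 0.0954 at 1 h (edgeR adjusted p = 7.94e-10, n = 4 each) and by 1.97 ± 0.0956 at 16 h (adjusted p = 3.48e-12).

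The Psme caps differed as well. Psme4, the PA200 activator, was the other gene whose translational efficiency rose, by 0.41 ± 0.111 at 1 h (edgeR adjusted p = 0.00326, n = 4 each) and by 0.67 ± 0.111 at 16 h (adjusted p = 3.33e-05). Its polysome levels were 168.8 to 189.7 CPM at Tg 16 h + PERKi, 115.8 to 147.4 in control, 165.7 to 189.3 at Tg 1 h and 213.3 to 255.3 at Tg 16 h. That rise depends on how coding length is treated: with offsets for length the change was -0.64 at 1 h and -0.29 at 16 h, whereas Psmd1 stayed at 0.86 and 1.5. Psme1, of the interferon-inducible PA28 cap, fell by 1.99 at 1 h, and Psme3, of the nuclear PA28 gamma cap, fell by 0.60.

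**Figure D2:**
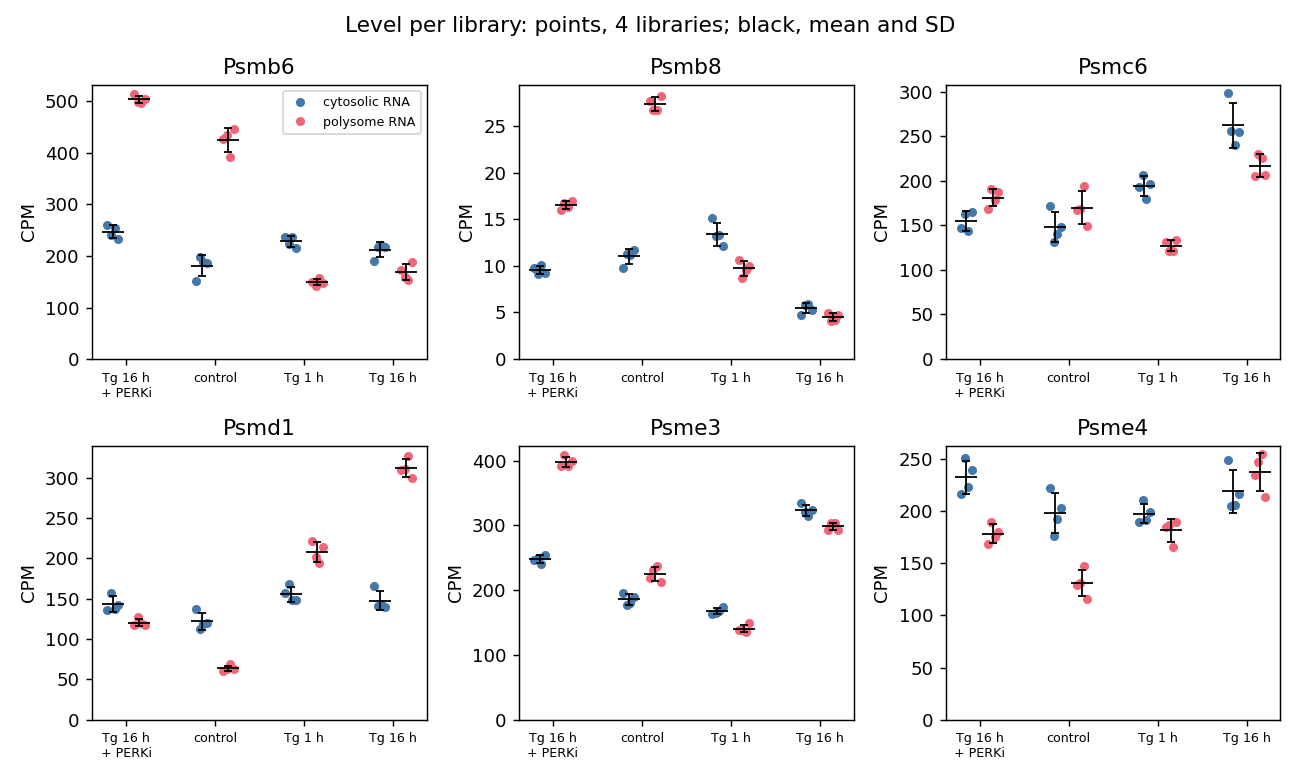
Levels in CPM of Psmb6, Psmb8, Psmc6, Psmd1, Psme3 and Psme4 in each library (points), with mean and SD (black), for cytosolic (blue) and polysome RNA (red) in the 4 conditions. Psmb6 polysome levels sit at 497.8 to 513.4 with the inhibitor and 392.9 to 446.1 in control, against 142.5 to 156.3 at 1 h and 153.8 to 188.1 at 16 h, while Psmd1 polysome levels run the other way, at 116.9 to 126.8 with the inhibitor, 60.7 to 68.6 in control, 194.6 to 221.4 at 1 h and 299.3 to 326.4 at 16 h.

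Late inhibition of PERK was followed by higher translational efficiency of most proteasome mRNAs. Against Tg 16 h, 31 genes rose and 3 fell at Tg 16 h + PERKi, with a median of 0.92 (all genes -0.09), where 26.4% of all genes were called higher and 33.7% lower. All 7 Psma and 8 of 10 Psmb genes rose. Psmb6 rose by 1.39 ± 0.0851 (edgeR adjusted p = 1.28e-10, n = 4 each), Psmb5 by 1.00, Psma7 by 0.97 and Psmd11 by 1.01. Psmd1, Psme4 and Psmd2 were the 3 that fell, by 1.31, 0.48 and 0.31 on the log2 scale, but with length offsets Psme4 turned to 0.38 and Psmd2 to 0.19. For Psmd4 the difference was 0.17 (adjusted p = 0.0521) and for Psmd14 0.03 (adjusted p = 0.852). In polysome RNA 33 rose and 6 fell, with a median of 1.00, where 42.1% of all genes were called higher and 40.7% lower.

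Compared with control, the inhibitor group was lower in translational efficiency for 22 genes and higher for 2, with a median of -0.23 (all genes -0.12; 27.1% of all genes lower, 16.3% higher). That balance depends on the method: 16 were lower and 2 higher with DESeq2 size factors or with length offsets, and 10 were lower and 11 higher under analysis of partial variance, which regresses polysome on cytosolic levels. Psmb10 had the largest difference, -1.41, followed by Psmd4 at -0.66, and the 2 higher genes were Psmd1 at 0.66 and Psme3 at 0.38. The size for Psmb10 is uncertain, since its log2 ratios spread from 1.05 to 2.43 in control (0.03 to 0.44 at Tg 16 h + PERKi). In polysome RNA 13 genes were higher and 17 lower (36.8% and 40.3% of all genes). Between the 2 times, 20 genes were higher in translational efficiency at Tg 16 h than at Tg 1 h and 0 were lower by edgeR's test (1 at an unadjusted p under 0.05, and 1 by DESeq2), with a median of 0.26, where 14.5% of all genes were higher and 13.6% lower. Analysis of partial variance called 28 higher and 6 lower. Psmd1 had the largest such difference, 0.68. In polysome RNA 23 were higher and 7 lower (38.4% and 40.0% of all genes), among them Psme3 at 1.08 and Psmb8 at -1.11.

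Coding length and the starting ratio varied together with these changes. Psma genes have coding sequences of 702 to 789 nt, Psmb of 603 to 906, Psmc of 1167 to 1425 and Psmd of 666 to 2859, with Psme4 at 5529 nt. Over the 41 genes, the Spearman correlation of coding length with the change in translational efficiency was 0.641 at 1 h, 0.694 at 16 h and -0.706 for Tg 16 h + PERKi against Tg 16 h; the genes share libraries, so this is a description. Among all genes, those of 600 to 900 nt had a median of -0.41 at 1 h and those above 3000 nt of 0.89, but genes under 400 nt, where no proteasome gene lies, had 0.42. The proteasome genes lay lower than the genes of their own length: 22 of 600 to 900 nt had a median of -1.56, and 14 of 900 to 1500 nt had -1.03, where all genes of that length had -0.38. With length offsets in the fit, 39 genes fell and 1 rose at 1 h, with a median of -1.01; Psme4 turned to a fall, and Psmd14, at -0.03, was no longer called.

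**Figure D3:**
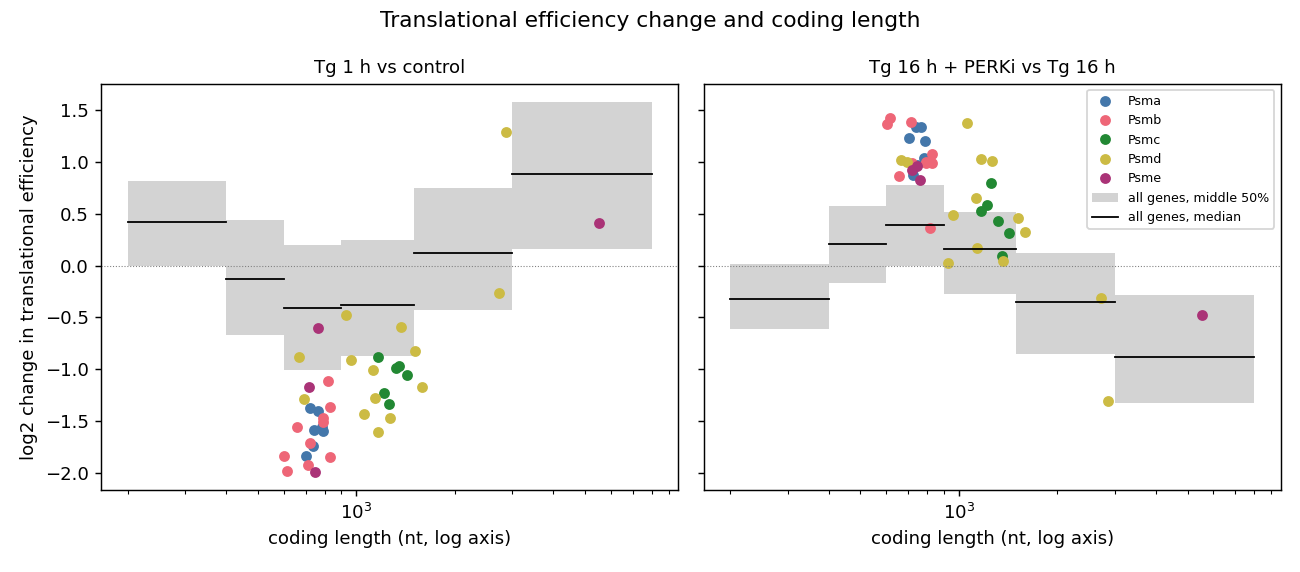
Log2 change in translational efficiency of each proteasome gene (points, coloured by class) against its coding length in nt on a log axis, for Tg 1 h against control (left) and Tg 16 h + PERKi against Tg 16 h (right). Black lines are medians and grey bands the middle 50% of all genes in 6 length bins; at 1 h the genes of 600 to 900 nt sit at a median of -1.56, below the -0.41 of all genes of that length.

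The ratio in control cells was also compared. Of the 41 genes, 24 were among the 10% of all genes with the highest control ratio. At 1 h that 10% had a median change of -1.12, with 90.8% called lower, and the 24 proteasome genes had -1.49. At 16 h the medians were -0.91 for the 10% and -1.30 for the proteasome genes. Control libraries enter both the ratio and these changes, which ties the measures together. For Tg 16 h + PERKi against Tg 16 h, which uses no control library, the 10% had a median of 0.35 and the 24 proteasome genes had 0.99. No test was made of these differences, and the part that length or starting ratio plays in them was not tested.

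Cytosolic RNA changed less, and by class. At 1 h, 25 genes rose and 6 fell, with a median of 0.21 (28.1% of all genes called higher and 28.1% lower), and at 16 h 20 rose and 10 fell, with a median of 0.14 (37.9% higher, 39.4% lower). At 1 h, the cytosolic changes of the 41 genes ran from -0.47 to 0.68 on the log2 scale. Psmd4 had the largest rise at 1 h: 140.1, 136.7, 140.7 and 128.3 CPM at Tg 16 h + PERKi, a mean of 101.8 ± 10.2 (SD, n = 4) in control, 169.1, 160.4, 163.9 and 160.5 at Tg 1 h, and 141.2, 156.5, 159.5 and 152.8 at Tg 16 h. All libraries at 1 h were above all control libraries, a change of 0.68 ± 0.0631 (edgeR adjusted p = 8.36e-08, n = 4 each). At 16 h 11 of 14 Psmd and 4 of 6 Psmc genes rose, while of the 17 core genes 4 rose and 4 fell.

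The cap genes Psmc6, Psmc2 and Psme3, which rose at 16 h, were lower with the inhibitor than at Tg 16 h. The cap genes as a whole did not share that direction. Of them, 2 Psmc genes were higher and 4 lower, 5 Psmd higher and 4 lower, and 2 Psme higher and 1 lower. Among all genes, 42.2% were called higher and 32.5% lower. Psmc6, an ATPase subunit, had cytosolic levels of 146.8, 163.1, 143.1 and 165.1 CPM at Tg 16 h + PERKi, 171.1, 131.6, 140.3 and 147.7 in control, 193.3, 206.4, 179.4 and 196.0 at Tg 1 h, and 298.5, 255.3, 240.4 and 255.0 at Tg 16 h. The 16 h libraries stood above all others. It rose by 0.83 at 16 h and fell by 0.76 at Tg 16 h + PERKi against Tg 16 h, and Psmc2, another subunit of the ATPase ring, rose by 0.83 and fell by 0.62. Psme3 had 239.8 to 254.2 CPM in cytosolic RNA at Tg 16 h + PERKi, 177.8 to 195.6 in control, 163.4 to 174.7 at Tg 1 h and 315.2 to 335.1 at Tg 16 h, with changes of 0.80 at 16 h and -0.39 with the inhibitor.

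At 16 h, 4 of the 5 interferon-inducible genes fell in cytosolic RNA, as did 39.4% of all genes. Psmb8, the inducible counterpart of Psmb5 (chr17:34197721-34201454, plus strand, mm10), had 9.77, 9.16, 10.1 and 9.21 CPM in cytosolic RNA at Tg 16 h + PERKi, 9.80, 11.3, 11.2 and 11.7 in control, 15.1, 13.2, 13.3 and 12.1 at Tg 1 h, and 4.76, 5.80, 5.93 and 5.30 at Tg 16 h. The 16 h libraries lay below all others. It fell by 1.02 ± 0.0890 at 16 h (edgeR adjusted p = 1.43e-08, n = 4 each) and rose by 0.81 with the inhibitor. Psmb9, at about 1 CPM or less, fell by 1.20 at 16 h, Psme2 by 0.89 and Psme1 by 0.53, and with the inhibitor they rose by 1.02, 0.71 and 0.37. Psmb10, the remaining inducible beta gene, changed by 0.10 at 16 h (not called) and rose by 0.69 with the inhibitor. Without these 5 genes, 20 of 36 rose and 6 fell at 16 h (37.9% and 39.4% of all genes). With the inhibitor against Tg 16 h, 13 of those 36 rose and 9 fell (42.2% and 32.5% of all genes).

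**Figure D4:**
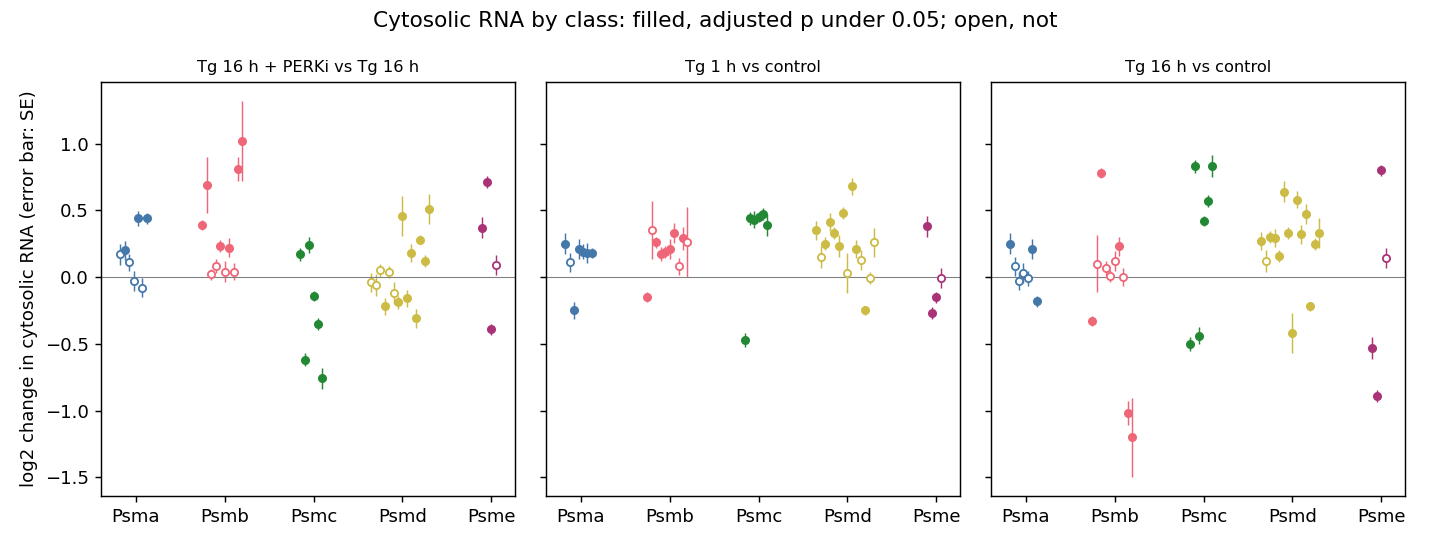
Log2 change in cytosolic RNA of each proteasome gene by class, with SE, for Tg 16 h + PERKi against Tg 16 h, Tg 1 h against control and Tg 16 h against control; filled points passed an adjusted p of 0.05. Psmc2 and Psmc6 sit at -0.62 and -0.76 with the inhibitor and at 0.83 at 16 h, and Psmb9 at 1.02 with the inhibitor and -1.20 at 16 h.

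Against Tg 16 h, 18 genes were higher and 9 lower in cytosolic RNA at Tg 16 h + PERKi (42.2% and 32.5% of all genes), with a median of 0.09 where all genes had 0.10. This split depends on the scaling: DESeq2's size factors gave 13 higher and 9 lower, and length offsets gave 14 and 15. Against control, 23 were higher and 4 lower (38.1% and 35.2%), and between the times 9 were higher and 13 lower at Tg 16 h (37.7% and 37.7%).

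Promoters were compared because the cytosolic changes differed between genes. RefSeq windows of 300 bases (GRCm38.p6, 250 before to 50 after the start) matched 36 of the 43 genes. A set of 7 motifs was searched on both strands. Motif shares of all genes cover every gene with a RefSeq window, whether or not it was detected in these cells. They are therefore not a reference of expressed genes. CCGGAAG, the core of sites for ETS factors, was in the windows of 12 of the 36 genes and of 9.93% of all 27025 genes. GGGCGG, the GC box, was in 22 of 36 and in 38.2% of all genes. TGACNNNGC, the core of the antioxidant response element, was in 6 of 36 and 14.0%, and CCAAT in 14 and 41.1%. TTGCATCA was in 1 and 1.03%, and TGACTCAGC, a single sequence among those that TGACNNNGC matches, in 0 and 0.503%. The core of the interferon-stimulated response element was in 4 and 3.99%. Those 4 were Psmb3, Psmd4, Psmd9 and Psme1, of which only Psme1 is among the interferon-inducible genes above. Of the 12 genes with CCGGAAG, 10 rose and 1 fell in cytosolic RNA at 16 h (37.9% and 39.4% of all genes), and 1 rose and 7 fell with the inhibitor against Tg 16 h (42.2% and 32.5%). Of the 23 tested genes whose window lacks it, 9 rose and 5 fell at 16 h, a share of rises near that of all genes, and 13 rose and 2 fell with the inhibitor. Every gene with CCGGAAG except Psma6 codes for a cap subunit. The genes without it include most core genes with a window and Psmb8, Psmb9, Psmb10, Psme1 and Psme2. The division by motif therefore largely follows the classes described above, and the motif cannot be told apart from class. This division was chosen after the values were seen and was not tested. The promoters of 4 cap genes named above that hold the motif are shown 5′ to 3′ on the gene's strand, with CCGGAAG or its reverse complement in capitals.
Psmd4 promoter, chr3:95042565-95042864, minus strand: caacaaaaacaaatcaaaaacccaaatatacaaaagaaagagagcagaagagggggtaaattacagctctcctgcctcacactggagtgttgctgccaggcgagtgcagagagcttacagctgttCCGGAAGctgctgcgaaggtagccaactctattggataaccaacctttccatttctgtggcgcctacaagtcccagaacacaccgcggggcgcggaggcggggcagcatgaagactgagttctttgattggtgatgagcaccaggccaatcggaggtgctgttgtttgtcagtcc
Psmc6 promoter, chr14:45329574-45329873, plus strand: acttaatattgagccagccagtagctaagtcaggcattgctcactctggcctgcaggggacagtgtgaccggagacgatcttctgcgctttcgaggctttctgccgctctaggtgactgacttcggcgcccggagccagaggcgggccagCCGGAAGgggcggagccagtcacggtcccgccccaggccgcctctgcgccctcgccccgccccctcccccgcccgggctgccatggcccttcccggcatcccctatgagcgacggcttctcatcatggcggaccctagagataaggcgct
Psmc2 promoter, chr5:21785025-21785324, plus strand: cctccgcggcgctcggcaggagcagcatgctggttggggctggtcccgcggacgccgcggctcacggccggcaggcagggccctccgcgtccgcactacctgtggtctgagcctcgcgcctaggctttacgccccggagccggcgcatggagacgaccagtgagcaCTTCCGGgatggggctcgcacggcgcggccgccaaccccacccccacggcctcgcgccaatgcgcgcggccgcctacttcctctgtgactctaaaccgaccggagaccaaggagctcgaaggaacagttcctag
Psme3 promoter, chr11:101315963-101316262, plus strand: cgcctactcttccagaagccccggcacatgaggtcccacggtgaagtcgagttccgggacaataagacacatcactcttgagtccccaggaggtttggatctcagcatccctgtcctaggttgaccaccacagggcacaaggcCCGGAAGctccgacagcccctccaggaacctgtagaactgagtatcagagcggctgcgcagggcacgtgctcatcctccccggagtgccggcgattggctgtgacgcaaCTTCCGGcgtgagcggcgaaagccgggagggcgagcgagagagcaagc

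Genes that serve the proteasome did not follow a single direction. Of 29 tested genes for assembly, regulation, ubiquitin and associated proteins, 15 fell and 10 rose in translational efficiency at 1 h (34.4% and 33.4% of all genes), with a median of -0.23. Ubb, a polyubiquitin gene, fell by 1.52, and Rad23b, a shuttle factor for ubiquitinated proteins, had the lowest change, -1.61. At 16 h 11 rose and 15 fell (31.1% and 33.0% of all genes), from Uba6, a ubiquitin-activating enzyme, at 2.52 to Rps27a, a ubiquitin-ribosomal fusion gene, at -1.61. In cytosolic RNA at 16 h 20 of the 29 rose and 5 fell (37.9% and 39.4% of all genes), and Ubb had the highest change, 1.44. The 5 tested regulators all fell in cytosolic RNA with the inhibitor against Tg 16 h, as did 32.5% of all genes, among them Nfe2l1, the transcription factor of proteasome genes, at -0.99 and Ngly1, which is needed to activate it, at -1.33.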

How the data were processed

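The submitters' processing notes name HISAT, DESeq2 1.9.23 and the build mm10. No label or header names the counting tool, strand setting or annotation, so counts of overlapping or near-identical genes are uncertain. The authors deposited raw counts per gene symbol for 32 libraries. Counts were tested with edgeR 4.0.16 (R 4.3.3) after filterByExpr (minimum count 10, minimum total 15) and TMM scaling: 12366 genes in cytosolic RNA, 12065 in polysome RNA, and 12561 in translational efficiency, fitted as an interaction between condition and kind of RNA with sample blocks, since the RNA of each sample was divided into both kinds. Levels are CPM scaled within a kind of RNA, and ratios are scaled over all 32 libraries, so the 2 cannot be converted into each other. Because scaling is to the total of a library, a polysome loss shared by every mRNA cannot be seen. P-values were adjusted over all genes tested by Benjamini-Hochberg. The labels do not say that replicates were separate cultures, so p-values reflect only the spread among these samples and may be technical. No 2 libraries of a group agreed within sampling noise (lowest chi-square per degree of freedom 2.29). Coding lengths came from GENCODE M21, which matched 98.8% of the symbols, and promoters from RefSeq. The tests were tried on simulated data with the same spread for every gene and no sample effect, which is simpler than these data. Some planted changes in genes of low count were missed, and the bar for passing was then set on the other genes. Alternatives were DESeq2 1.42.0 and its size factors, no filter, analysis of partial variance with limma 3.58.1, length offsets, a replicate block and leaving out each replicate. The members and gene lists were chosen with earlier results of these data known. Named genes are 14 panel genes, the called gene with the highest and lowest change in each class with at least 5 CPM on average, and the extremes of the other pathway genes, of which some are not reported here; others were named after their values were seen.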

Additional observations from a re-analysis of the deposited data

Results flagged for a closer look

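A library stood apart from the other 3 of its group in 6 of 168 groups of 4 tested for the panel genes, where chance flags about 1 in 20 groups. In cytosolic RNA of control replicate 1, Psmc5 was at 120.8 CPM while the other control libraries had 134.4 to 136.5. In cytosolic RNA of Tg 16 h replicate 1, Psmb6 was at 191.0 CPM (others 217.5 to 222.1) and Psmd1 at 165.4 CPM (others 140.2 to 143.9). Psme1 was at 62.8 CPM in cytosolic RNA of Tg 1 h replicate 1 (others 54.2 to 55.2). Psma7 was at 158.1 CPM in polysome RNA of Tg 16 h replicate 4 (others 147.1 to 148.1). The log2 ratio of polysome to cytosolic level of Psmb8 was 1.9 in control replicate 1 (others 1.67 to 1.69). Without control replicate 1, 27 proteasome genes rose and 6 fell in cytosolic RNA at 1 h, and without Tg 16 h replicate 1, 20 rose and 9 fell at 16 h.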

How the results depend on the processing

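Of 200 recomputed counts of called proteasome genes, 199 stayed within 1.5 times the main count. The exception was translational efficiency at Tg 16 h against Tg 1 h under analysis of partial variance, with 34 called genes (28 higher, 6 lower) where the main test called 20; the cause was not tested. That method also gave 7 higher and 29 lower at Tg 16 h against control, and 11 higher and 10 lower at Tg 16 h + PERKi against control. Leaving out single replicates gave counts between 0.792 and 1.3 times the main ones; Psmd3 in cytosolic RNA at 16 h, -0.42 in the main fit, lost its call without control replicate 2 (-0.30) or without Tg 16 h replicate 1 (-0.31). Same-numbered libraries of other conditions had a median correlation of 0.00974 (-0.495 to 0.665) in cytosolic and -0.0154 (-0.479 to 0.574) in polysome RNA. Differently numbered ones had 0.00428 and 0.00798. The cytosolic and polysome libraries of 1 sample, which belong together, reached a median of only 0.0888. These medians therefore cannot decide whether the replicate numbers pair the samples. With the number as a replicate block, the 5 cytosolic comparisons called 30, 30, 21, 27 and 26 genes and the polysome ones 41, 41, 30, 39 and 28, and without the sample block translational efficiency called 41, 38, 21, 35 and 24. Of 3972 values of single genes, 3789 kept direction and call, 43 gained the call, 33 changed direction and the rest lost the call. Another 37 values called in neither fit changed sign, by at most 0.17 in size. Genes of about 1 CPM, such as Psmb9, are limited by depth.

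With offsets for coding length, cytosolic values turned to 0.01 for Psmb1 and 0.01 for Psme3 at 1 h, to 0.17 for Psmd1 and 0.08 for Psmd2 at Tg 16 h against Tg 1 h, and to -0.05 for Psma2 and -0.02 for Psmb6 at Tg 16 h + PERKi against Tg 16 h. Polysome values turned to 0.34 for Psmd14, -0.37 for Psmd2 and -0.97 for Psme4 at 1 h, to 0.16 for Psmd4 at 16 h, and to 0.09 for Psmd2, -0.17 for Psme3 and 0.60 for Psme4 with the inhibitor. Translational efficiency turned to -0.64 for Psme4 at 1 h, to 0.38 for Psmd14, -0.34 for Psmd2, 0.03 for Psme3 and -0.29 for Psme4 at 16 h, and to -0.35 for Psmd14, 0.19 for Psmd2 and 0.38 for Psme4 with the inhibitor. Under analysis of partial variance it turned to 0.17 for Psmd2 at 1 h, to 0.55 for Psmc6, 0.65 for Psmd14 and 0.71 for Psme3 at 16 h, to -1.22 for Psmb8 and -0.28 for Psme1 at Tg 16 h against Tg 1 h, and to -0.35 for Psmc2 at Tg 16 h + PERKi against Tg 16 h. Against control it turned at Tg 16 h + PERKi to 0.27 for Psma5, 0.28 for Psmb6, 0.06 for Psmc2, 0.40 for Psmd11 and 0.50 for Psmd14. The cause of these changes was not tested.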
